A study of Mus musculus with 5 samples.

Results

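The genes examined are Hmox1 and 7 genes of the oxidative stress response, Nfe2l2, Slc7a11, Gclc, Gclm, Txnrd1, Srxn1 and Nqo1, in cells of the mouse mammary gland. They were taken by symbol from the list of 32285 genes of the count tables, so 8 of 32285 genes are described, and each symbol matched 1 row. They were selected on UMI levels of these same libraries by class, genotype and replicate number, seen in an earlier analysis, and which of these decided is not recorded, so counts over them describe these libraries and support nothing further. The study used droplet single-cell RNA sequencing to compare mammary glands of mice with a knockout (KO) of Frmd3 and of wild type (WT) mice. The libraries were KO1, KO2 and KO3 against WT1 and WT2, and each was taken as 1 mouse. The labels give the genotype and a replicate number. They state neither which part of Frmd3 is deleted nor a strain, an age or a treatment, and they give the replicate number no meaning.

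Nfe2l2 encodes NRF2, a transcription factor that KEAP1 holds at a low level by directing its degradation. Oxidants and electrophiles release NRF2, which then binds antioxidant response elements with small MAF proteins and turns on genes for glutathione synthesis, thioredoxin and quinone reduction. Hmox1 encodes heme oxygenase 1, which opens the heme ring to biliverdin, iron and carbon monoxide. The repressor BACH1 holds Hmox1 down until heme or oxidants remove it, and tissue macrophages, which take up red cells and free heme, are known for high Hmox1. Slc7a11 encodes the cystine carrier xCT, and it is a target of ATF4, the factor of the amino acid response, as well as of NRF2.

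The 250 bases before the start of each gene were read from RefSeq's promoter table (GRCm38.p6), which held 6 of the 8 genes. The windows of Slc7a11 (chr3:50443614-50443863, minus strand), Srxn1 (chr2:152105274-152105523, plus strand), Gclm (chr3:122245307-122245556, plus strand) and Nqo1 (chr8:107403206-107403455, minus strand) are shown 5′ to 3′, because Slc7a11, Srxn1 and Gclm were called in 4 or 5 classes each in the comparison of libraries by number below and Nqo1 in none. Capitals mark matches to 3 motifs, searched on both strands: TGACNNNGC, the core of the antioxidant response element, TGAGNNNGC, the same core with G in the fourth place, and TGATGCAA, the core of the amino acid response element to which ATF4 binds. The last 2 motifs were chosen after the data were seen.
Slc7a11: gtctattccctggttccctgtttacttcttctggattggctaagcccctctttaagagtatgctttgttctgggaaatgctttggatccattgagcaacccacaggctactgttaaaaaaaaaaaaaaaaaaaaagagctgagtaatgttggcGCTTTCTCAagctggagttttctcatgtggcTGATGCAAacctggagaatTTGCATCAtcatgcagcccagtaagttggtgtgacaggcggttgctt
Srxn1: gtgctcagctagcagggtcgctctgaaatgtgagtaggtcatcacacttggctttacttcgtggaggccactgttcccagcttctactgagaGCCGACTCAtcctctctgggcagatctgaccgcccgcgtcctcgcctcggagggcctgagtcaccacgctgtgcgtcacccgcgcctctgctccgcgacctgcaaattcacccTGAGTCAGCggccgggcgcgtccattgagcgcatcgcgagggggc
Gclm: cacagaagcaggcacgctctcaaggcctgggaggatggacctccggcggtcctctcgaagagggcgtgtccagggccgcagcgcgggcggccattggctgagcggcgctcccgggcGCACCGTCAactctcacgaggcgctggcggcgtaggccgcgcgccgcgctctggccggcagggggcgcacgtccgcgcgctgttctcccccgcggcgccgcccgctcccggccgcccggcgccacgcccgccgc
Nqo1: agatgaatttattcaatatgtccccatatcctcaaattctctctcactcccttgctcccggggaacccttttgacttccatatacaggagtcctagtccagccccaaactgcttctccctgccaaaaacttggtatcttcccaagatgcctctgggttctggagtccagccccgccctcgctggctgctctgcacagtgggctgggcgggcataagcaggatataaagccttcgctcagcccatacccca
The Slc7a11 window held TGATGCAA once on each strand and 1 match to TGAGNNNGC. Of the 32851 windows of the same length in the table, 0.791% held TGATGCAA and 14.4% held TGAGNNNGC. The Srxn1 window held 2 matches to TGAGNNNGC, and the second, TGAGTCAGC, also contains the AP-1 core TGAGTCA. TGACNNNGC was found in 10.2% of all windows. It matched once in Gclm, once in the Nfe2l2 window (chr2:75704664-75704913, minus strand, TGACTCCGC) and once in 1 of the 3 Txnrd1 windows, and it had no match in Slc7a11, Srxn1 or Nqo1. A match describes letters only.

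The 5 libraries held 3359 to 11040 cell barcodes and 24197344 to 87577099 unique molecular identifiers (UMIs), which count captured transcripts. After cells under 500 genes, cells over 15% mitochondrial UMIs and predicted doublets were removed, 26834 cells in 32 clusters remained. Of these clusters, 3 stayed unnamed and the others made up 14 marker-defined classes. Frmd3 was found at 2.12, 3.06 and 1.82 CPM (UMIs per 1000000 UMIs) in KO1, KO2 and KO3 and at 1.42 and 2.40 in WT1 and WT2, and since the deleted exons are not named, transcript ends may still be counted and the genotype labels could not be checked by them. Libraries stood apart in several ways. An unnamed cluster took 39.4% of the cells of KO1 against at most 1.59% of any other library. Macrophage genes were among its leading genes, but fibroblast markers were found in a larger mean share of its cells than macrophage markers. Heat shock genes were highest in KO3, at 21919 CPM summed over 13 genes in macrophage-like cells against 5385 to 10412 in the other libraries. Over all cells used, the libraries numbered 2 were deepest, with a median of 12972.5 UMIs per cell in KO2 and 12228 in WT2 against 4237.5, 6696 and 8565 in KO1, KO3 and WT1. This order held in fibroblast-like cells but not in every class. In hormone-sensing luminal-like cells, KO2 and WT2 had 14876 and 20113.5, against 17783, 26453 and 21239.5 in KO1, KO3 and WT1. In monocyte-like cells KO2 was the shallowest library, at 5104. Pairs of libraries shared at most 22 cell barcodes (KO1 and WT2).

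Levels are given as CPM, the UMIs of a gene scaled to the UMIs of all cells of a class in a library, for libraries with at least 20 cells of that class. The classes are clusters of the same cells, so differences between classes are described without a test. Nfe2l2 (mm10, chr2:75675513-75704641, minus strand), like the other 7, is annotated as a protein-coding gene and was found in every class. It was highest in neutrophil-like cells, at 1020 CPM in KO2, 808 in WT1 and 830 in WT2, the 3 libraries with enough of these cells. Macrophage-like cells held 414, 466, 315, 477 and 431 CPM in KO1, KO2, KO3, WT1 and WT2, and monocyte-like cells 450, 387, 400, 368 and 410. All neutrophil values lay above all macrophage values, while the macrophage and monocyte ranges overlapped. In fibroblast-like cells the level ran only from 190 CPM in WT2 to 212 in KO2, and the lowest mean, 62.4 ± 8.36 CPM (SD, n = 5), was in T cell-like cells.

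Hmox1 (chr8:75093621-75100589, plus strand) was highest in macrophage-like cells, marked by C1qa, C1qb, C1qc and Pf4. Its level there was 3087 CPM in KO1, 3184 in KO2, 1561 in KO3, 2026 in WT1 and 3720 in WT2, a mean of 2716 ± 891 (SD, n = 5). Both libraries numbered 2 were at the top and KO3 was lowest. Other genes of heme and iron handling with high levels in these cells were the ferritin chains Fth1 (11533 ± 4927 CPM) and Ftl1 (7264 ± 2699) and the haemoglobin scavenger receptor Cd163 (597 ± 183). RNA of haemoglobin and other red cell genes summed to 403 CPM in macrophage-like cells of WT1 and to at most 8.88 in the other libraries. Only KO3 had less Hmox1 than WT1 there, and the part of red cell RNA in the level was not tested.

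Monocyte-like cells followed, with 581, 1903, 98.3, 332 and 2065 CPM of Hmox1 in KO1, KO2, KO3, WT1 and WT2. KO2 and WT2 stood far above the others, and the lowest value was again KO3. This class is 1 cluster of 881 cells, none of whose monocyte markers is among its 10 leading genes. At the finer Leiden resolution of 2, 489 of its cells became unnamed and the rest stayed monocyte-like, with dendritic cell markers found in a mean of 16.3% of the former and 1.82% of the latter cells. After this division, made after the data were seen, Hmox1 was at 233, 3038, 144, 269 and 2972 CPM in KO1, KO2, KO3, WT1 and WT2 in the monocyte-like cells and at 692, 445, 88.5, 374 and 1365 in the unnamed cells, where KO2 lay below KO1. In fibroblast-like cells, the largest class, Hmox1 was at 162, 752, 144, 165 and 719 CPM in the same order. The 2 libraries numbered 2 formed 1 level and the other 3 another, whatever the genotype. Fibroblast-like cells were 36.0% of the cells and held 55.5% of all Hmox1 UMIs, and macrophage-like cells were 6.42% of the cells and held 23.6%. At the low end, Hmox1 averaged 26.8 CPM in B cell-like, 21.1 in NK/innate lymphoid-like and 20.4 in T cell-like cells. Every pair of neighbours in the order of classes overlapped across libraries. The plot of Hmox1 by class shows this order with the value of each library.

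**Figure D1:**
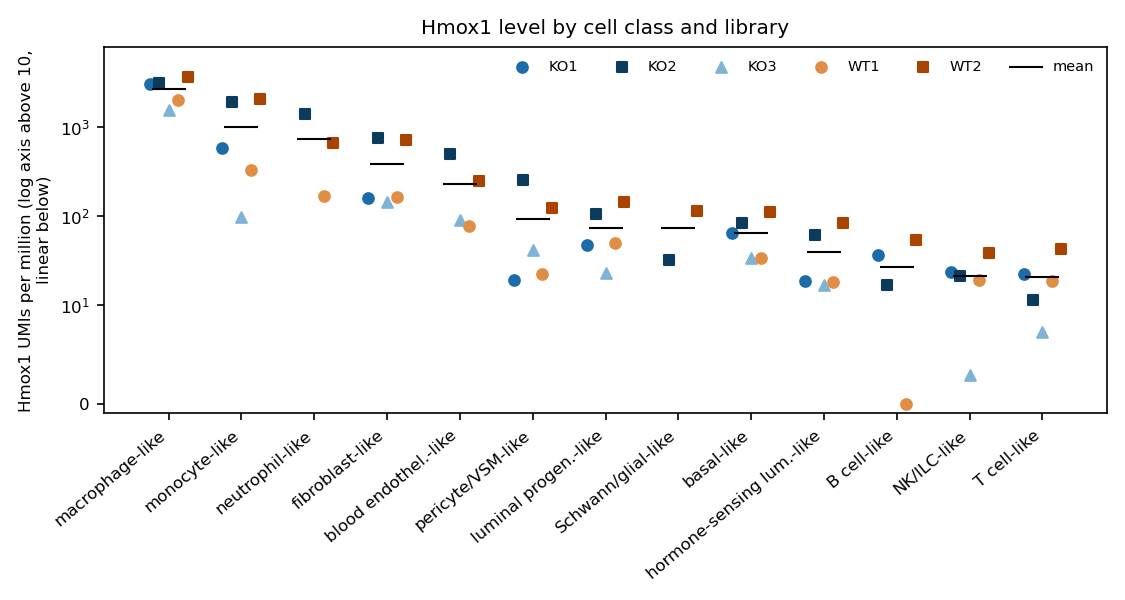
Hmox1 level (CPM of the class, log axis above 10 and linear below) in each cell class with at least 20 cells, 1 point per library and a bar at the mean. In fibroblast-like cells the 2 libraries numbered 2 (squares) sit at 719 and 752 and the other 3 between 144 and 165. VSM is vascular smooth muscle and ILC innate lymphoid.

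Srxn1 peaked in macrophage-like cells as Hmox1 did, and the other 6 genes peaked in other classes. Slc7a11 (chr3:49892526-50443614, minus strand) was highest in myeloid cells. Neutrophil-like cells, of which there were 37, 23 and 89 cells, held 4689, 3065 and 3587 CPM in KO2, WT1 and WT2, and monocyte-like cells 366, 1363, 87.6, 263 and 855 in KO1, KO2, KO3, WT1 and WT2. The neutrophil values all lay above the monocyte values. Macrophage-like cells had a mean of 80.7 ± 78.0 CPM, and every epithelial and lymphoid class except basal/myoepithelial-like (25.0 CPM) had a mean of at most 4.80. Monocyte-like cells, 3.28% of all cells, carried 50.5% of the Slc7a11 UMIs, and neutrophil-like cells, 0.581% of cells, carried 22.1%.

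The mean levels of the subunits of glutamate-cysteine ligase, which makes the first bond of glutathione, peaked in different epithelial cells, with overlap for Gclm. Gclc (chr9:77754535-77794485, plus strand), the catalytic subunit, was highest in hormone-sensing luminal-like cells, the class of Prlr and Esr1, at 250, 277, 171, 247 and 307 CPM in KO1, KO2, KO3, WT1 and WT2. These cells were 14.0% of all cells and held 58.5% of the Gclc UMIs. Luminal progenitor-like cells, the other luminal class, were the lowest of all classes, at 15.8 to 29.4 CPM, with no overlap with the hormone-sensing range. Gclm (chr3:122245557-122270732, plus strand), the modifier subunit, was highest in basal/myoepithelial-like cells, at 119 ± 34.2 CPM (SD, n = 5), followed by neutrophil-like cells at 104 ± 10.2 (n = 3) and hormone-sensing luminal-like cells at 96.9 ± 24.7. The basal/myoepithelial-like range, 84.5 to 161 CPM, overlapped the hormone-sensing range, 69.7 to 126. Hormone-sensing luminal-like cells held 38.4% of the Gclm UMIs and basal/myoepithelial-like cells, 1.51% of all cells, held 3.05%. Gclm was lowest in B cell-like cells, at 18.8 CPM.

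Txnrd1 (chr10:82833951-82897712, plus strand) encodes thioredoxin reductase 1, which passes electrons from NADPH to thioredoxin. Its mean ran from 557 ± 174 CPM in monocyte-like cells to 55.5 in B cell-like cells, with neutrophil-like cells at 485 and macrophage-like cells at 453. With a per-cell marker gate in place of clusters, monocyte-like cells were at 327 CPM and no longer first, below neutrophil-like (501), macrophage-like (471) and basal/myoepithelial-like cells (343). Srxn1 (chr2:152105516-152111376, plus strand), which restores over-oxidised peroxiredoxins, was highest in macrophage-like cells, at 199, 496, 70.7, 177 and 491 CPM in KO1, KO2, KO3, WT1 and WT2. KO2 and WT2 were again the high pair. Among epithelial classes, Srxn1 was highest in luminal progenitor-like cells, at 167 CPM, and basal/myoepithelial-like cells had 25.5.

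Nqo1 (chr8:107388225-107403206, minus strand), an enzyme that reduces quinones, was scarce, with 1280 UMIs in all cells used. Luminal progenitor-like cells held 55.9% of them while being 8.45% of the cells, at 27.8, 22.9, 29.4, 27.7 and 25.9 CPM in KO1, KO2, KO3, WT1 and WT2. That level, 26.7 ± 2.47 CPM (SD, n = 5), had no library standing apart. T cell-like and NK/innate lymphoid-like cells had 0 Nqo1 UMIs, which allows up to 7.27 and 8.66 CPM in their shallowest library (3 UMIs). The map of mean levels shows the separate peaks of the genes.

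**Figure D2:**
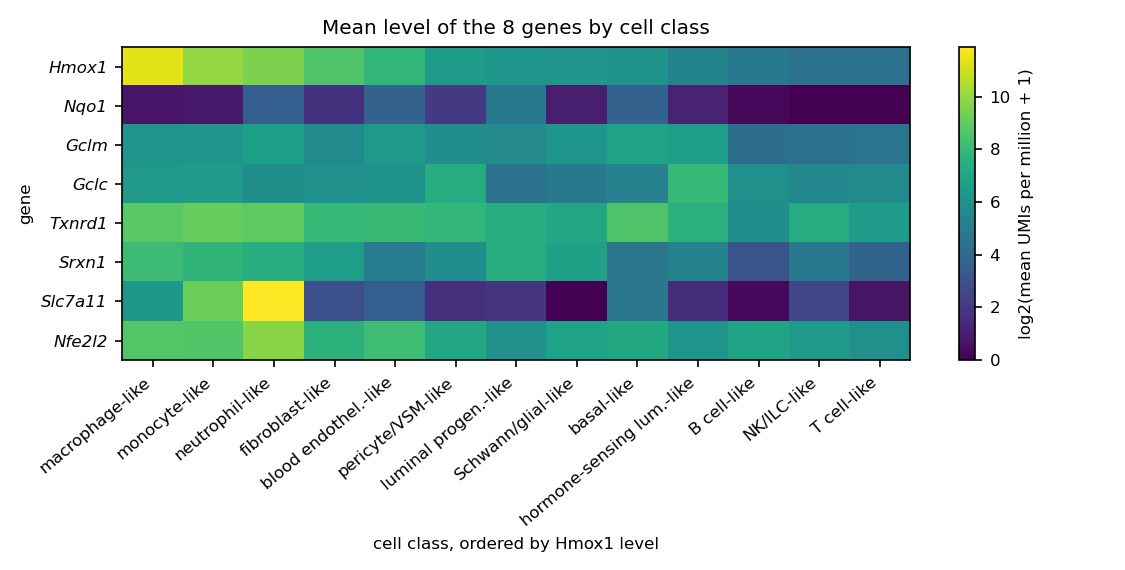
Mean level of the 8 genes (colour, log2 of mean CPM plus 1) in each cell class (columns, ordered by Hmox1). Hmox1 peaks in macrophage-like, Slc7a11 and Nfe2l2 in neutrophil-like, Gclc in hormone-sensing luminal-like and Nqo1 in luminal progenitor-like cells.

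Over 59 sums of a class in a library, Pearson correlations of log2(CPM + 1) described which genes ranked together. Sums of 1 library share its depth and handling, sums of 1 class share its cell type, and no test was made. Among the 8 genes, Slc7a11 and Nfe2l2 were most alike (r = 0.81), followed by Txnrd1 and Slc7a11 (0.77), Hmox1 and Nfe2l2 (0.74) and Hmox1 and Slc7a11 (0.73). Nqo1 and Gclc stood aside, with r = 0.12 between Hmox1 and Nqo1 and -0.24 between Nqo1 and Gclc. Of 10877 genes with a mean of at least 5 CPM, those nearest to Hmox1 were Ctsb (0.88), the lysosomal protease cathepsin B, Fnip2 (0.83) and Tlr2 (0.82). The nearest to Slc7a11 were Clec4d (0.89), Gm14548 (0.88) and Tlr13 (0.88), and to Nfe2l2 Nampt (0.86), Ftl1 (0.84) and Hlx (0.84). Srxn1 was nearest to the known NRF2 targets Sqstm1 (0.74) and Esd (0.74) and to Plekhm2 (0.73). Txnrd1 was nearest to Tnfrsf1a (0.79), Slc7a11 (0.77) and Ifitm3 (0.76). Nqo1 was nearest to Cavin2 (0.82), Alpl (0.80) and Ccn2 (0.78), Gclm to App (0.69), Tctex1d2 (0.67) and Ifitm2 (0.66), and Gclc to Trpc6 (0.66), Dipk1a (0.61) and Fxyd2 (0.60).

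Whether the loss of Frmd3 went with a change of these genes was tested within each class, with the 3 KO and 2 WT libraries as replicates. None of the 8 genes passed the test in any of 11 classes. The replicates are libraries, each taken as 1 mouse, which the labels do not state. The labels also do not say whether the mice shared a litter or a day. Of 77 pairs of a gene and a class that could be tested, 32 were higher and 45 lower in KO, with log2 differences from -1.09 to 1.08, 0 pairs passed an edgeR adjusted p of 0.05, and the smallest edgeR adjusted p was 0.984. At an unadjusted p under 0.05 there was 1 pair by edgeR, and DESeq2 called 0. Over all genes, edgeR called 0% in 10 classes and 0.0226% (2 of 8838) in macrophage-like cells, where the chemokine Cxcl9 and the matrix protein Thbs1 were lower in KO by -3.99 and -3.28 on the log2 scale (edgeR adjusted p = 0.00507 for both); these 2 genes were named after their values were seen.

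Hmox1 in macrophage-like cells, with the levels above, had a log2 difference of -0.17 (SE 0.44, edgeR adjusted p = 0.999) between KO and WT. The ranges of the genotypes overlapped, and without KO3 the difference was 0.09. In fibroblast-like cells it was -0.33 (SE 0.96) and in monocyte-like cells -0.45 (SE 1.16), and these became 0.05 and 0.07 without KO3. Without KO1, the fibroblast value was 0.03. Between libraries of the same number, KO over WT in fibroblast-like cells was -0.03 for number 1 and 0.07 for number 2 on the log2 scale. For macrophage-like cells these values were 0.61 and -0.22, and for monocyte-like cells 0.81 and -0.12, so the sign differed between the numbers in all 3 classes. Nfe2l2 was higher in KO in 9 of 11 classes, from -0.19 to 0.69 on the log2 scale, and Srxn1 lower in 9 of 10. Hmox1 was lower in 9 of 11, Txnrd1 in 8 of 11, Gclc in 7 of 11, Gclm in 4 of 11, Nqo1 in 3 of 5 and Slc7a11 in 3 of 7. Over all genes, 49.6% to 52.7% were higher in KO in a class. All classes come from the same 5 libraries, so a shift of 1 library can recur across classes and these counts are not independent.

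The smallest unadjusted p was that of Gclc in basal/myoepithelial-like cells. Its level was 20.5, 36.8 and 25.7 CPM in KO1, KO2 and KO3 and 53.0 and 51.0 in WT1 and WT2, from 13 to 80 UMIs per library. Every KO library was below both WT libraries (log2 difference -0.93, SE 0.33, edgeR unadjusted p = 0.0182, adjusted p = 0.9998). With doublets kept the difference was -0.51 (edgeR unadjusted p = 0.106), with the per-cell marker gate -0.72 (0.0582), and DESeq2 gave an unadjusted p of 0.0536. In the edgeR test with doublets removed, 5.71% of all genes tested in that class had every KO library below both WT libraries. In T cell-like cells Gclc (-0.54) and Txnrd1 (-0.49) also lay below in every KO library, where 9.19% of genes did. Txnrd1 lay below in B cell-like cells (-0.70, 16.5% of genes), which KO3 lacked. In blood endothelial-like cells, which KO1 lacked, Txnrd1 (0.37) and Srxn1 (0.48) lay above, as did 10.5% of genes. The 6 pairs whose ranges did not overlap thus ran in both directions.

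**Figure D3:**
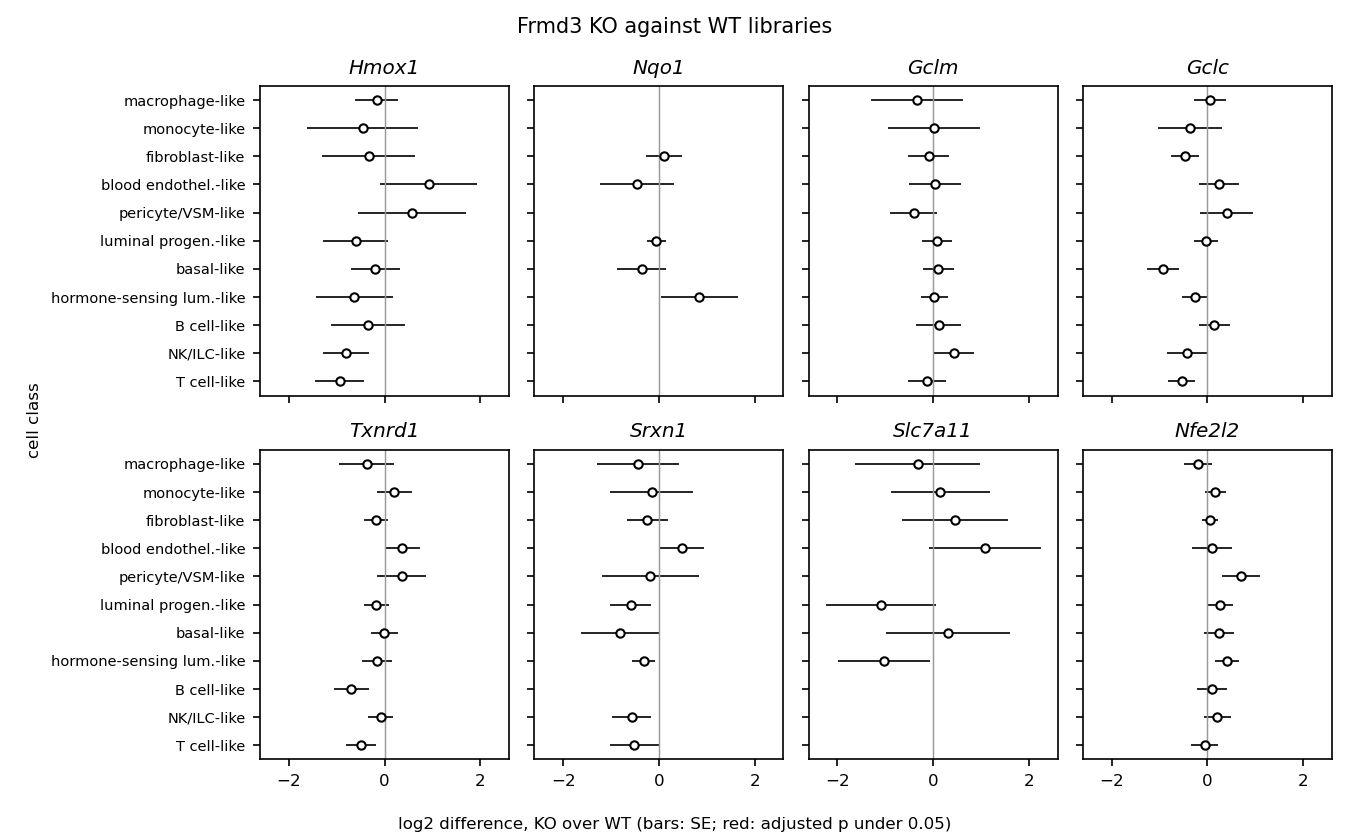
Log2 difference of KO over WT for each of the 8 genes (panels) in each class (rows), with bars of 1 SE. Open points did not pass an adjusted p of 0.05, and no point passed; values lie between -1.09 and 1.08.

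The share of macrophage-like cells with a Hmox1 UMI was compared after each cell was thinned to 2000 UMIs. It was 86.3%, 84.0% and 85.4% in KO1, KO2 and KO3 and 72.9% and 88.5% in WT1 and WT2, and the 2 WT libraries lay on either side of all KO libraries. The means were 85.2 ± 1.17% (SD, n = 3) and 80.7 ± 11.0% (n = 2), a difference of 4.52 percentage points (exact permutation test over libraries, two-sided, p = 0.7), where 3 against 2 libraries cannot give a p under 0.1. Thinning left out 94, 4, 108, 88 and 23 shallower cells in KO1, KO2, KO3, WT1 and WT2, and unthinned shares averaged 90.7% and 88.1%. In T cell-like cells, which had the lowest mean Hmox1 level of the classes ranked above, the thinned share was 5.56%, 1.08%, 1.30%, 5.09% and 8.99%. Median depths there were 3657 to 5970.5 UMIs against 3618 to 8986 in macrophage-like cells. In WT1, 44 of the 494 macrophage-like cells formed a separate cluster led by Mmp12, in which Hmox1 was at 84.9 CPM against 2429 in the larger macrophage-like cluster of the same library.

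The libraries numbered 2 (KO2 and WT2) were then compared with those numbered 1 (KO1 and WT1) within each class, with genotype in the model. Of the 8 genes, 6 were higher in the libraries numbered 2 in at least 1 class by this test, and Nfe2l2 and Nqo1 were not called in any. The labels do not say what the number stands for, so mouse, day, handling and depth cannot be told apart, and the 4 libraries leave 1 residual degree of freedom, so that these p-values rest on the spread shared across genes. Differences by number may have been among the values that chose the 8 genes, so the calls below describe these 4 libraries and support nothing. Of 69 testable pairs of gene and class, 64 were higher and 5 lower in number 2, and 21 were called, all higher. The 2 ranges did not overlap for 52 pairs. By class these were 6 of 8 genes in fibroblast-like cells (beside 68.3% of all genes tested), 8 of 8 in hormone-sensing luminal-like (64.6%), 7 of 8 in luminal progenitor-like (56.6%), 7 of 8 in basal/myoepithelial-like (56.4%), 5 of 7 in macrophage-like (49.3%) and 6 of 7 in monocyte-like cells (47.1%). The other classes had 5 of 6 in NK/innate lymphoid-like (45.3%), 5 of 6 in pericyte/vascular smooth muscle-like (40.7%), 3 of 5 in B cell-like (43.2%) and 0 of 6 in T cell-like cells (41.9%).

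Hmox1 was called in 4 classes. In fibroblast-like cells it rose by 2.30 on the log2 scale (SE 0.12, edgeR adjusted p = 8.7e-05), 4.66 times between the KO libraries and 4.36 times between the WT libraries. In hormone-sensing luminal-like cells the levels were 18.4 and 18.1 CPM in KO1 and WT1 and 61.3 and 82.8 in KO2 and WT2, a log2 difference of 1.93 (SE 0.13, edgeR adjusted p = 2.0e-08). KO3, which has no WT partner, lay with the low group at 16.8 CPM. Luminal progenitor-like cells (1.38, SE 0.12) and basal/myoepithelial-like cells (0.95, SE 0.25) were also called. Hmox1 rose there 2.23 and 1.31 times between the KO libraries and 2.85 and 3.25 times between the WT libraries. The basal/myoepithelial-like levels of KO1 and KO2 rest on 59 and 41 UMIs. Larger values were not called in monocyte-like cells (2.23, SE 0.25, edgeR adjusted p = 0.0552) and pericyte/vascular smooth muscle-like cells (3.13, SE 0.42, edgeR adjusted p = 0.0575). In macrophage-like cells, where Hmox1 was highest, the difference was 0.60 (SE 0.39, edgeR adjusted p = 0.658).

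Slc7a11 had the largest called differences, all upward. Fibroblast-like cells held 2.54 and 1.09 CPM in KO1 and WT1 and 15.2 and 9.21 in KO2 and WT2, a log2 difference of 2.89 (SE 0.19, edgeR adjusted p = 2.1e-04), with KO3 at 3.83. In basal/myoepithelial-like cells 7.56 and 3.84 CPM stood against 67.4 and 38.3 (3.04, SE 0.44). The gene was also called in luminal progenitor-like (2.96), hormone-sensing luminal-like (1.33) and monocyte-like cells (1.85). The epithelial calls rest on few UMIs in KO1 and WT1. These were 7 and 5 in basal/myoepithelial-like, 2 and 9 in luminal progenitor-like and 4 and 23 in hormone-sensing luminal-like cells. The value in monocyte-like cells (SE 0.14, edgeR adjusted p = 0.0329) was 1 of only 11 genes called there, 0.132% of those tested. In the monocyte-like cells of the finer clustering Slc7a11 was at 174, 2002, 136, 228 and 1160 CPM in KO1, KO2, KO3, WT1 and WT2, and in the unnamed cells at 427, 542, 77.3, 287 and 620.

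Of the glutathione genes, Gclm was called in fibroblast-like (0.88), hormone-sensing luminal-like (0.44), luminal progenitor-like (0.59) and basal/myoepithelial-like cells (0.67), and Gclc in NK/innate lymphoid-like cells alone (1.19, SE 0.29). Srxn1 was called in 5 classes, most in basal/myoepithelial-like cells, where 4.32 and 12.3 CPM in KO1 and WT1 stood against 34.7 and 54.2 in KO2 and WT2 (2.21, SE 0.41, edgeR adjusted p = 2.2e-06). Those basal/myoepithelial-like levels of KO1 and WT1 came from 4 and 16 UMIs. The other called values of Srxn1 were 1.23 in NK/innate lymphoid-like, 1.04 in luminal progenitor-like, 0.91 in fibroblast-like and 0.40 in hormone-sensing luminal-like cells. Txnrd1 was called in hormone-sensing luminal-like (0.69) and fibroblast-like cells (0.38). Nfe2l2 ranged from -0.30 to 0.69 and Nqo1 from -0.17 to 1.04.

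These counts stand beside many other genes that differed between the numbers. In fibroblast-like cells 5 of the 8 genes were called, beside 20.2% of all genes tested. The shares were 5 of 8 beside 27.1% in hormone-sensing luminal-like, 4 of 8 beside 14.1% in luminal progenitor-like, 4 of 8 beside 14.4% in basal/myoepithelial-like, 2 of 6 beside 3.68% in NK/innate lymphoid-like and 1 of 7 beside 0.132% in monocyte-like cells. No member was called in macrophage-like (0.0113% of genes), pericyte/vascular smooth muscle-like (0.035%), B cell-like (0.773%) or T cell-like cells (0.157%). Where only a few genes were called, they were Igha in macrophage-like cells and Col3a1 and Eln in pericyte/vascular smooth muscle-like cells, named after their values were seen. The median log2 difference of the 8 genes was 0.63 in fibroblast-like cells against -0.01 over all genes, and over the 7 testable genes it was 1.04 against 0.01 in macrophage-like and 1.12 against 0.00 in monocyte-like cells. In the other classes, the median of the testable genes ran from 0.27 in B cell-like to 1.09 in pericyte/vascular smooth muscle-like cells. It was 0.28 in T cell-like and 0.45 in luminal progenitor-like cells.

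**Figure D4:**
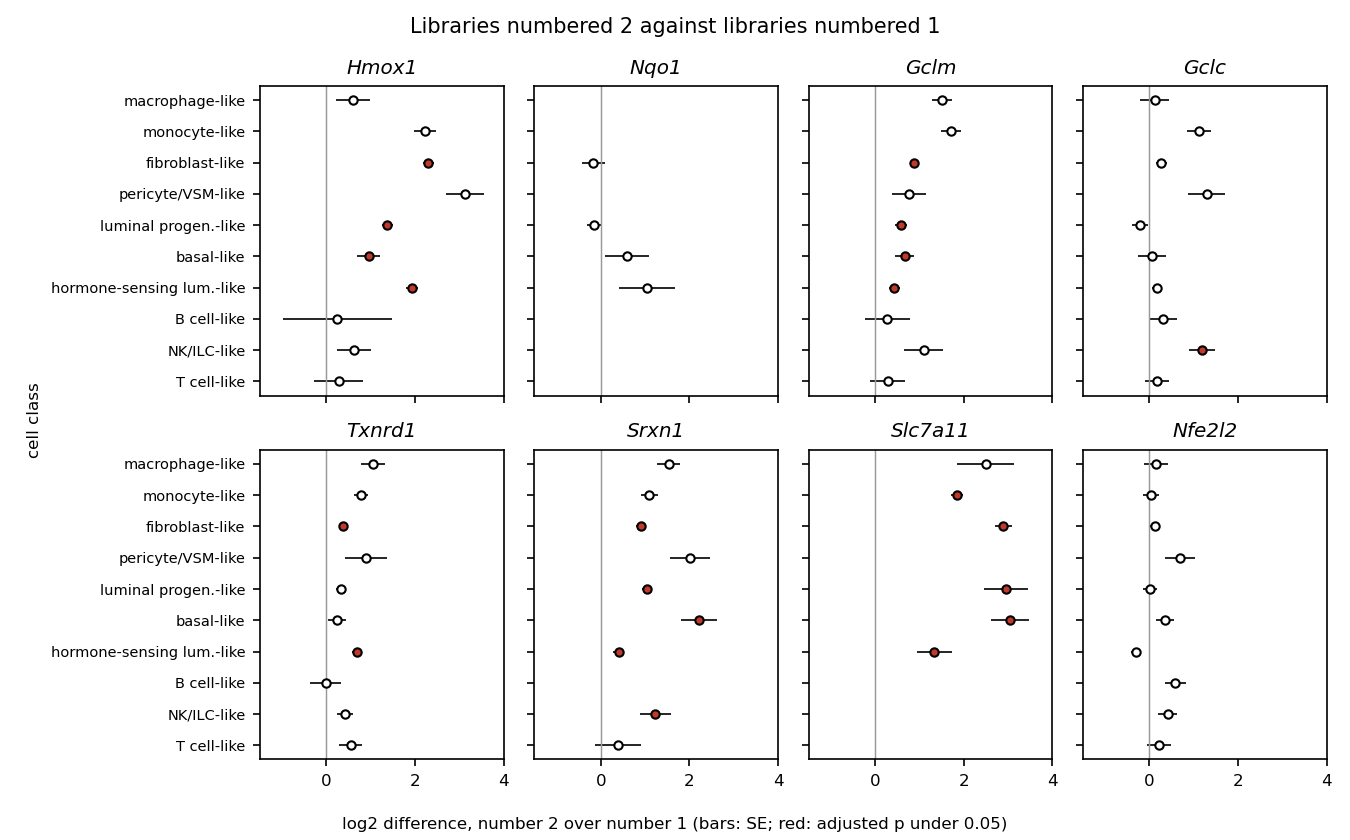
Log2 difference of libraries numbered 2 over those numbered 1 for each of the 8 genes (panels) in each class (rows), with bars of 1 SE and red points where the edgeR adjusted p was under 0.05. Red points appear for Hmox1, Gclm, Gclc, Txnrd1, Srxn1 and Slc7a11, and none for Nqo1 or Nfe2l2.

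The makeup of the classes moved with the number: 1 hormone-sensing luminal-like cluster held 1235 cells of KO2 and 806 of WT2 but 7 of KO1 and 18 of WT1. The fit was therefore repeated inside single clusters of the classes that hold more than 1, a choice made after the data were seen. Basal/myoepithelial-like and monocyte-like cells were 1 cluster each, so this could not be done for them. Hmox1 was called in all 6 fibroblast-like clusters that could be fitted, with log2 differences of 1.23 to 2.47, in 1 luminal progenitor-like cluster (1.26) and in 1 hormone-sensing luminal-like cluster (2.06, SE 0.28, edgeR adjusted p = 8.1e-12). Of all genes tested, 14.5%, 11.1%, 11.5%, 5.17%, 9.55% and 4.23% were called in the 6 fibroblast-like clusters, 14.9% in the luminal progenitor-like and 17.5% in the hormone-sensing luminal-like cluster. In the largest of the fibroblast-like clusters Hmox1 was at 156, 878, 106, 203 and 851 CPM in KO1, KO2, KO3, WT1 and WT2. Slc7a11 was called in 4 of the 5 fibroblast-like clusters in which it could be tested, at 3.02 to 4.23, and had 0.99 in the other. The largest values rest on very low levels in KO1 and WT1. In the cluster with 4.23 these were 0.736 and 0.346 CPM, against 11.0 and 8.92 in KO2 and WT2. In the cluster with 3.81 they were 1.17 and 1.50 CPM, against 19.8 and 8.92. In the hormone-sensing luminal-like cluster the values of Gclm (-0.50) and Srxn1 (-0.27) had the opposite sign to those of the whole class, and Nfe2l2 was lower in number 2 (-0.70, SE 0.26, edgeR adjusted p = 0.0420). In that cluster, KO2 and WT2 had 94 and 56 shallow cells, with median depths of 3656.5 and 4732.5 UMIs. KO1 and WT1 had 287 and 617 cells there, with 17743 and 21194 UMIs. Hmox1 of KO2 and WT2 rests there on 43 and 37 UMIs, and the part of depth was not tested.

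**Figure D5:**
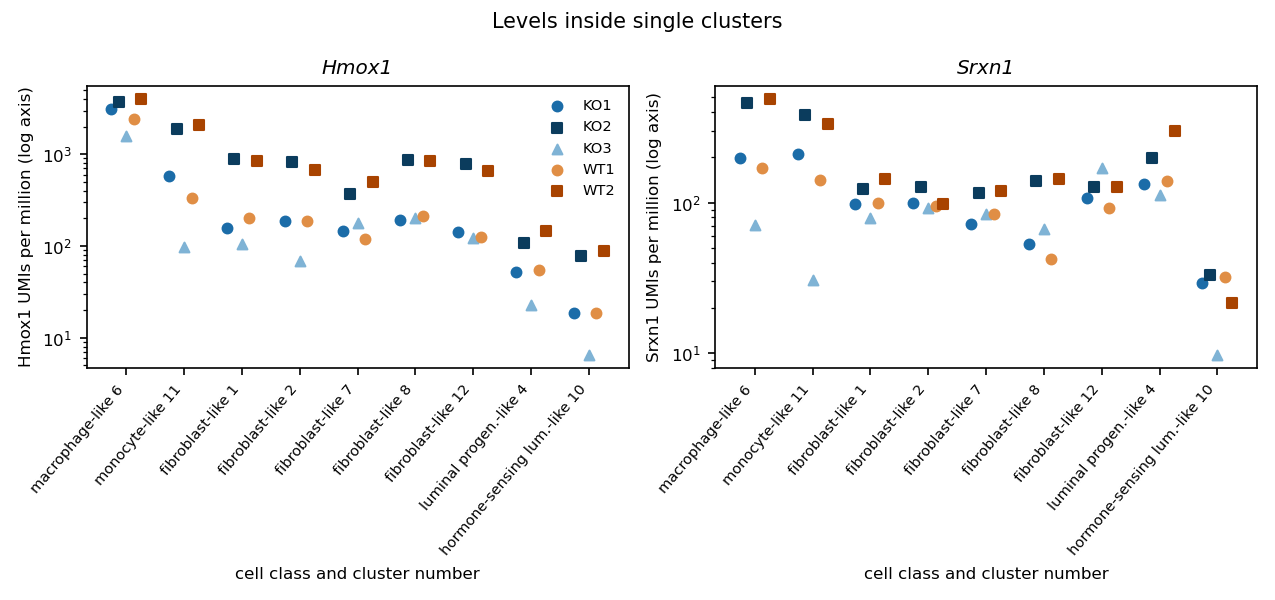
Level of Hmox1 (left) and Srxn1 (right) in CPM (log axes) inside single clusters, 1 point per library. Hmox1 of KO2 and WT2 (squares) lies above the other libraries in each fibroblast-like cluster shown, for example at 878 and 851 against 106 to 203 in cluster 1, while Srxn1 of the hormone-sensing luminal-like cluster does not separate in this way.

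Marker RNA also moved with the number, and its part in the differences was not tested. The 8 fibroblast markers summed to 70180 and 67611 CPM in fibroblast-like cells of KO2 and WT2 against 36285, 49531 and 31349 in KO1, KO3 and WT1, and none of these markers was at 0. In hormone-sensing luminal-like cells they summed to 533 and 620 CPM in KO2 and WT2 against 160, 45.2 and 97.1. Scaled by the ratio of Hmox1 to these markers in fibroblast-like cells of the same library, that corresponds to 5.71 and 6.59 of the 61.3 and 82.8 CPM of Hmox1 found in KO2 and WT2. Macrophage markers in hormone-sensing luminal-like cells were lower in KO2 and WT2 (7.61 and 15.9 CPM) than in KO1 and WT1 (37.1 and 32.1). In T cell-like cells the same scaling gave 21.1 and 16.2 CPM of Hmox1 in KO2 and WT2, where 11.4 and 42.4 were found. The share of fibroblast-like cells with a Hmox1 UMI, thinned to 2000 UMIs, was 52.8% and 51.4% in KO2 and WT2 against 20.5%, 21.0% and 21.1% in KO1, KO3 and WT1, and unthinned 79.2% and 82.7% against 52.0%, 49.0% and 49.9%. Median depths were 16088.5 and 15969 UMIs in the high pair and 11179, 8916.5 and 10243 in the others. With the per-cell marker gate, the thinned share of KO1 was 41.1%, so KO1 no longer lay with KO3 and WT1. Those 2 libraries were at 20.9% and 21.0% under the gate, and KO2 and WT2 at 52.1% and 51.0%. The gate named 6708 cells of KO1 fibroblast-like, against 3002 by cluster.

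Other genes of these pathways, in lists drawn up with earlier results of these data known, were counted in the same fits. Between the genotypes, none of the 24 testable other NRF2 targets was called in fibroblast-like cells, where 21 were lower in KO, 1 of the 24 at an unadjusted edgeR p under 0.05, with a median log2 difference of -0.21 against -0.00 over all genes. In macrophage-like cells 15 of 20 were lower and 0 had an unadjusted edgeR p under 0.05, with a median of -0.30 against 0.01. The glutathione transferase Gstp1 had the smallest unadjusted p of the list in fibroblast-like cells, at 16.2, 24.6 and 13.5 CPM in KO1, KO2 and KO3 and 87.7 and 24.2 in WT1 and WT2 (log2 difference -1.60, SE 0.54, edgeR adjusted p = 0.9998). The high value was that of WT1 alone. Of 13 testable NRF2 regulators and partners, 7 were higher in macrophage-like cells and 6 lower, and of 19 genes of heme and iron handling 6 were higher and 13 lower, with no gene called by edgeR and 0 and 1 at an unadjusted p under 0.05. Bach1, the repressor of Hmox1, was at 699, 421, 420, 741 and 691 CPM in KO1, KO2, KO3, WT1 and WT2 in these cells (-0.49, SE 0.32, edgeR adjusted p = 0.999), and the genotypes overlapped.

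Between the numbers, 5 of the 24 other NRF2 targets were called higher in libraries numbered 2 and 2 lower in fibroblast-like cells, 7 higher and 2 lower of 23 in hormone-sensing luminal-like cells, and 5 higher and 1 lower of 20 in luminal progenitor-like cells. Of all genes tested, 20.2%, 27.1% and 14.1% were called in either direction in these classes. The median log2 differences of the list were 0.25, 0.23 and 0.20. Among genes named after their values were seen, Sqstm1, which encodes the autophagy receptor p62, rose in all 3 of these classes (0.58, 1.18 and 0.78), as did Esd (0.62, 0.32 and 0.64), while G6pdx fell by 0.94 in hormone-sensing luminal-like cells (edgeR adjusted p = 6.4e-06). NRF2's inhibitor Keap1 was called in none of the 3, at -0.13, -0.08 and 0.13, nor was Bach1, at 0.18, 0.23 and 0.15. Heme and iron genes gave 1 higher and 2 lower of 19 in fibroblast-like cells, and in hormone-sensing luminal-like cells 6 higher and 1 lower of 18, beside the same 20.2% and 27.1% of all genes. The lists and the 8 genes were not tested against each other.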

How the data were processed

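Mammary gland cells were measured by 10x 3′ single-cell RNA sequencing (v3 kit) in 5 libraries, each taken as 1 mouse. Per the file headers, the deposited UMI counts per gene and barcode came from Cell Ranger 6.0.2 (6.1.2 for KO3), and the build was mm10, per the submitters' processing notes. For the gene annotation and for the calling of cells, the sources used here give nothing. Such 3′ counts see only reads near a transcript's end, and free RNA can add UMIs to any cell.

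Cells under 500 genes or over 15% mitochondrial UMIs were removed. Of the 28588 left, 1754 predicted doublets (0.8% of a library per 1000 barcodes, by similarity to simulated doublets) were removed. Clusters came from 2000 variable genes, 30 components, 20 neighbours and Leiden resolution 1 (scanpy 1.11.5). They were named from marker lists. The thresholds for naming (at least 3 markers found in 10% of cells, and rules that leave mixed clusters unnamed) were set after the clusters were seen. For each class, UMIs were added up in every library with at least 20 of its cells and tested in edgeR 4.0.16 (filterByExpr, TMM, robust quasi-likelihood test, Benjamini-Hochberg over all genes of the class, threshold 0.05), with DESeq2 1.42.0 as an alternative. The fit was tested on simulated data. Gene positions were taken from GENCODE vM21.

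The 8 genes, the gene lists and the rules were chosen with earlier results of these data known. All 8 are named in every class described. From each list up to 4 genes with the smallest unadjusted p or the highest macrophage level are named, and for each of the 8 the 3 genes most like it. Others are said to be named after their values were seen. Alternatives covered the tool, scaling, filters, doublets, clustering, a per-cell marker gate, each library left out and the replicate number as a block.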

Additional observations from a re-analysis of the deposited data

Results flagged for a closer look

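Several genes had differences of opposite sign in different classes, with every library on its side of the difference; these differences between classes were not tested. Txnrd1 between KO and WT was higher in every KO library in blood endothelial-like cells (0.37) and lower in every KO library in B cell-like cells (-0.70), with KO1 lacking the former and KO3 the latter class, a gap of 1.07 on the log2 scale. Nqo1 between the numbers was 1.04 in hormone-sensing luminal-like and -0.17 in fibroblast-like cells, a gap of 1.21 from at most 79 UMIs per library in either class. Gclc was 1.29 in pericyte/vascular smooth muscle-like and -0.21 in luminal progenitor-like cells, a gap of 1.50. Nfe2l2 was 0.69 in pericyte/vascular smooth muscle-like and -0.30 in hormone-sensing luminal-like cells, a gap of 0.99. None of these 8 single values passed an edgeR adjusted p of 0.05.

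A signal also appeared in cells outside the main comparisons, whose classes were made from clusters. The unnamed cluster that held 39.4% of the cells of KO1 carried Hmox1 at 446 CPM, with the resident macrophage genes Lyve1, Folr2 and Cd163 at 140, 157 and 80.4 CPM, a median of 2837 UMIs per cell, and leading genes such as Wfdc17, Lyve1 and Pf4. Fibroblast markers were found in a mean fraction of 0.883 of the cells of this cluster and macrophage markers in 0.438, which left it unnamed. The 77 cells of WT1 in this cluster had Hmox1 at 219 CPM. These cells entered none of the main tests of a class, and what they are was not tested. The per-cell marker gate names each cell on its own, so they could enter the fits made with it. Under that gate, fibroblast-like cells of KO1 numbered 6708 against 3002 by cluster.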

How the results depend on the processing

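Genes called between KO and WT numbered 2 over all classes. They were 45 with DESeq2, 297 without a filter on low counts, 120 with the replicate number as a block (10 classes; blood endothelial-like cells could not be fitted), 1 with doublets kept and 1 with the per-cell marker gate. Leaving out 1 library gave 1 (without KO3) to 107 (without KO2), with 27, 29 and 54 without KO1, WT1 and WT2. In all of these settings 0 pairs of the 8 genes and a class were called. With the block, Hmox1 turned to 0.17, 0.015 and 0.39 in macrophage-, fibroblast- and monocyte-like cells. Leaving out each library gave -0.59 to 0.41, -1.63 to 1.17 and -1.79 to 1.47, with positive values without KO3 (0.09, 0.05 and 0.07), without WT2 (0.41, 1.17 and 1.47) and, in fibroblast-like cells, without KO1 (0.03). Gclc in basal/myoepithelial-like cells ranged from -1.15 to -0.79 in the same way, and was -0.51 with doublets kept and -0.72 with the marker gate. Deviations from the genotype mean were correlated between same-numbered libraries. Over 10 classes, r over genes was 0.04 to 0.67 for KO1 with WT1 and 0.13 to 0.74 for KO2 with WT2. With only 2 WT libraries, the deviations of WT1 and WT2 are equal and opposite. The 2 ranges are therefore not independent, and r between differently numbered libraries has the same size with a negative sign. Such values and no stated meaning of the number do not establish pairs. The cause of these changes was not tested.

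Pairs called between the numbers were 21, and 32 without the filter. Without the genotype term 17 stayed called. Inside single clusters of classes with more than 1, 25 values kept their call, 12 lost it, and Gclm (-0.50) and Srxn1 (-0.27) reversed in a hormone-sensing luminal-like cluster. The Txnrd1 level of monocyte-like cells was 557 CPM and 327 with the marker gate. The difference in the share of macrophage-like cells with a Hmox1 UMI ranged from -3.29 (without WT1) to 12.3 percentage points (without WT2) when 1 library was left out. Pericyte/vascular smooth muscle-like cells were not fitted under the marker gate or the stricter cell filter. Classes of few cells limit what can be seen: Gclc in basal/myoepithelial-like cells rests on 13 to 80 UMIs per library.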

Other observations

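Genes of the ATF4 amino acid response, a pathway that drives Slc7a11 as NRF2 does, were compared between the libraries numbered 2 and those numbered 1. The list holds 15 genes and was drawn up with earlier results of these data known. In fibroblast-like cells 15 of 15 were higher and 8 were called (median log2 difference 0.55 against -0.01 over all genes), in hormone-sensing luminal-like cells 13 of 15 were higher with 9 called higher and 1 lower (0.72 against 0.00), and in luminal progenitor-like cells 13 of 15 were higher and 9 called (0.70 against -0.01). Of all genes tested, 20.2%, 27.1% and 14.1% were called in either direction in these classes. In monocyte-like cells 15 of 15 were higher and in macrophage-like cells 11 of 11 (medians 1.12 and 0.73). None of them was called by edgeR, which called 11 and 1 genes in all in these classes. At an unadjusted edgeR p under 0.05 there were 9 and 5, beside 878 of 8336 and 770 of 8829 genes tested. In basal/myoepithelial-like cells 10 of 13 were higher, with 3 called higher and 1 lower (median 0.55). Pericyte/vascular smooth muscle-like cells had 3 of 6 higher and 0 called (0.12). B cell-like, NK/innate lymphoid-like and T cell-like cells had 13 of 13, 11 of 12 and 12 of 14 higher, with 2, 3 and 0 called. Of all genes tested, 14.4%, 0.035%, 0.773%, 3.68% and 0.157% were called in these classes. Named after their values were seen, the glutathione-degrading enzyme Chac1 had log2 differences of 4.68, 3.48 and 3.18 in fibroblast-like, hormone-sensing luminal-like and luminal progenitor-like cells, and the mitochondrial folate enzyme Mthfd2 1.52, 0.98 and 2.88. Atf4 itself rose by 0.52, 0.82 and 0.59. Asns, another gene of this list, was not called in the same 3 classes (0.26, -0.04 and 0.37).

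Immediate early genes, which respond within minutes to tissue handling, were lower in several classes: 12 of 12 were called lower in the libraries numbered 2 in basal/myoepithelial-like cells (median -1.77), 6 of 12 in fibroblast-like (-0.47) and 5 of 12 in luminal progenitor-like cells (-0.64), while in hormone-sensing luminal-like cells 1 was called higher and 1 lower. Over all genes, 590 of 8353, 1430 of 14644 and 649 of 11477 were called lower in the first 3 of these classes, and the median was -0.01 in each. Their part in the differences of the 8 genes was not tested.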
